A study of Mus musculus with 4 samples.

Results

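The genes described here are 9 regulators of vascular calcification, *Spp1*, *Mgp*, *Alpl*, *Enpp1*, *Sox9*, *Tnfrsf11b*, *Ank*, *Bmp2* and *Msx2*, taken by symbol from a count table of 48587 genes. All 9 were in the table and all 9 passed the low-count filter. The libraries came from primary vascular smooth muscle cells (VSMCs) that grew out of the descending aorta of C57BL/6J mice of 8 to 12 weeks, used at passage 5 to 7. Cells were exposed for 24 hours to lentivirus carrying either shCTR, a hairpin against a plant microRNA sequence, or shMettl14, a hairpin against the m6A methyltransferase subunit gene *Mettl14*, and were collected 48 hours after fresh medium. Both groups thus carried a lentiviral vector, no untransduced cells were sequenced, and 1 hairpin against *Mettl14* was used. Each group had 2 libraries, lettered A and B, and nothing in the labels says whether they were separate isolations of cells, so that p-values measure only the spread between these libraries.

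Mineral forms in the arterial wall when VSMCs take on features of bone or cartilage cells and when the local brake on crystal growth fails. The brake is largely inorganic pyrophosphate, which ENPP1 makes outside the cell from ATP, which ANK helps to export and which the alkaline phosphatase ALPL destroys. Matrix Gla protein (*Mgp*) and osteopontin (*Spp1*) bind mineral or growth factors in the matrix, osteoprotegerin (*Tnfrsf11b*) is a decoy receptor for RANK ligand, and BMP2 with the transcription factors MSX2 and SOX9 promotes bone-like and cartilage-like gene expression.

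The sequences below are shown because METTL14 belongs to the complex that writes m6A within short motifs around a methylated adenosine, of which GGACT is a common form. In 1 GENCODE M21 protein-coding transcript per gene, GGACT was found in 8 of the 9 regulators, with *Mgp* (617 bases) at 0 copies. *Spp1* held 3 copies in 1507 bases, or 1.99 per kb, against a median of 1.05 per kb over 14385 tested protein-coding genes, and it lay at percentile 87.9 of them. *Bmp2* held 4 copies, *Msx2* 2 and *Enpp1* 9, at 1.13, 0.815 and 1.33 per kb. The remaining regulators had 1.43 per kb (*Ank*), 0.793 (*Alpl*), 0.726 (*Sox9*) and 0.710 (*Tnfrsf11b*). Coding sequence of 7 regulators held at least 1 copy, as did that of 76.7% of the tested protein-coding genes. The last coding copy and its neighbouring bases are given, with GGACT in capitals, for *Spp1*, whose libraries separated by hairpin, and for *Msx2* and *Bmp2*, in which it lay nearest to the end of the coding sequence (GRCm38, transcript sense). Only for *Msx2* of these 3 did any copy lie within 200 bases of the stop codon, where copies also lay in *Enpp1* and *Tnfrsf11b* and in 39.7% of the tested protein-coding genes. A match is a run of letters, and methylation of these sites was not measured in the counts.
Msx2, minus strand, chr13:53468202-53468226, coding base 757: cccgcctgttGGACTctatgccacg
Bmp2, plus strand, chr2:133561423-133561447, coding base 903: ctttgtatgtGGACTtcagtgatgt
Spp1, plus strand, chr5:104439492-104439516, coding base 451: cttggcttatGGACTgaggtcaaag

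The targeted gene and the cell type were checked first. *Mettl14* had 2050 and 2154 counts in shCTR A and B and 546 and 568 in shMettl14 A and B, which edgeR fitted as −2.08 on the log2 scale (standard error, SE, 0.25, unadjusted p = 0.00039 and adjusted p = 1.0). Library totals were 114343653 to 124815868 counts. Genes with at least 1 count numbered 21736 in shCTR B and 24570 to 25268 in the other libraries. Libraries of the same letter were more alike than libraries of the same hairpin (Pearson's r of log2 CPM across genes 0.977 and 0.985 against 0.953 and 0.969), and genes are not independent replicates. All 7 smooth muscle markers were tested, with a summed level of 5662 to 6601 CPM (counts scaled to a common library size, with TMM factors) in shCTR and 4293 to 4686 in shMettl14, and 3 of the 7 were lower in both shMettl14 libraries than in either shCTR library (13.3% of all tested genes). Endothelial markers (7 of 7 tested) were also abundant, at 3912 CPM summed in shCTR B, 1831 in shCTR A, 2408 in shMettl14 B and 1721 in shMettl14 A. Macrophage and leukocyte markers summed to 13.1 to 17.6 CPM in shCTR and 12.5 to 13.9 in shMettl14, with at most 4 counts of *Adgre1* in any library. Osteoblast markers summed to 0.380 to 0.867 CPM over all libraries, adipocyte markers to at most 0.0792, and chondrocyte markers, mostly *Col2a1*, to 194 to 414.

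Measured per kb of exon, the regulators spanned a wide range of levels. *Mgp* was highest, at 405 to 575 CPM per kb, followed by *Tnfrsf11b* at 35.7 to 94.5 and *Ank* at 20.0 to 25.3. The ranges of *Ank* and *Spp1* (7.29 to 21.0) overlapped, as did those of *Spp1* and *Sox9* (5.57 to 7.57) and of *Sox9* and *Msx2* (2.72 to 7.89), so the order of these neighbours is not set by the 4 libraries. *Enpp1* (0.676 to 1.54), *Bmp2* (0.0924 to 0.430) and *Alpl* (0.0196 to 0.0689 CPM per kb) followed, each with all libraries below those of the gene before it.

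**Figure D1:**
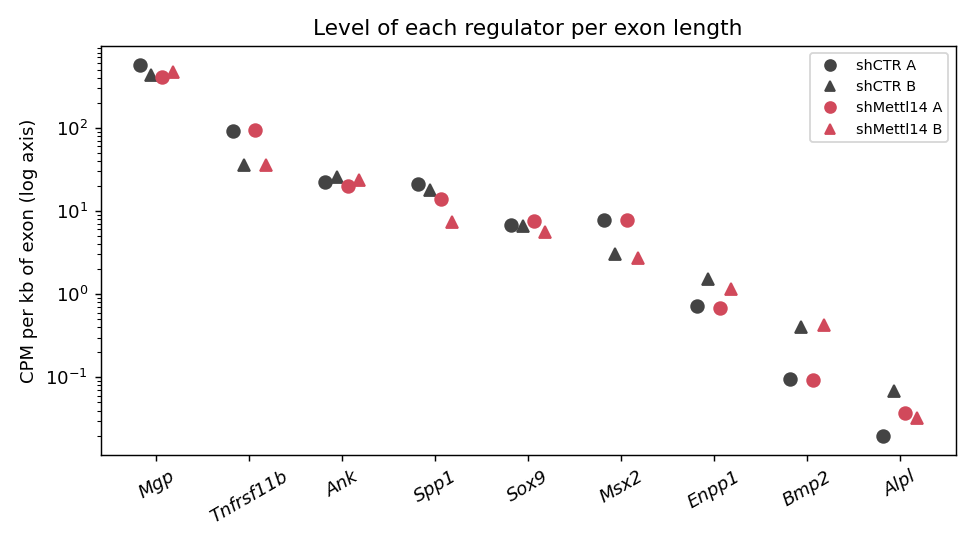
Level of each regulator in the 4 libraries in CPM per kb of exon on a log axis, with circles for letter A, triangles for letter B, grey for shCTR and red for shMettl14. *Mgp* sits between 405 and 575 and *Alpl* between 0.0196 and 0.0689.

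Between the hairpins, *Spp1* was the only regulator whose libraries separated, as those of 13.3% of all tested genes did in the same direction. The other 8 overlapped. In the quasi-likelihood fit of edgeR, adjusted by Benjamini-Hochberg across 18916 genes, 0 of the 9 regulators had an adjusted p under 0.05, and of all tested genes 0% did. No regulator reached an unadjusted p under 0.05, a level that 1.67% of all tested genes passed. Both shMettl14 libraries lay below both shCTR libraries for 1 of 9 regulators (13.3% of all tested genes) and above them for 0 (14.7%). Within the letters, 3 regulators (*Spp1*, *Enpp1* and *Ank*) were lower with shMettl14 in both A and B, against 27.6% of all tested genes. Of the 9, 0 were higher in both (30%), and 6 had ratios of opposite sign, as did 7966 of all 18916 tested genes. With RLE scaling *Msx2*, whose ratio in A was near 0, was also lower in both. The median log2 fold change of the 9 was −0.14, against 0.01 over all tested genes. For a single gene, the smallest two-sided p of an exact permutation test in this design is 0.333.

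**Figure D2:**
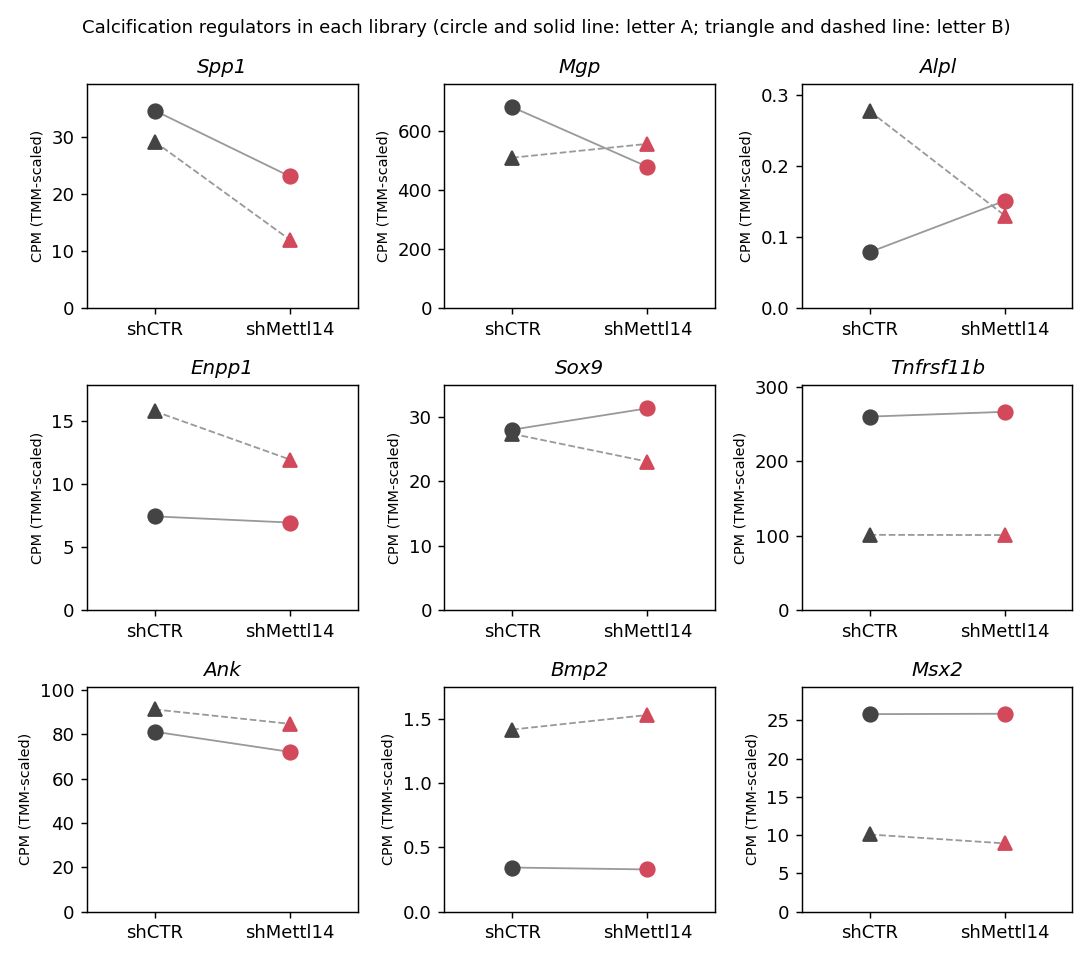
TMM-scaled CPM of each regulator in the 4 libraries, with a linear axis from 0 in each panel. Lines join the hairpins within a letter; for *Spp1* both lines go down, and for *Tnfrsf11b*, *Bmp2* and *Msx2* the lines are nearly flat and far apart.

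*Spp1* encodes osteopontin, a secreted acidic phosphoprotein that binds hydroxyapatite and integrins and is used as a marker of synthetic VSMCs. It had 3928 and 3148 counts in shCTR A and B and 2740 and 1562 in shMettl14 A and B, or 34.6 and 29.1 CPM against 23.1 and 12. Both shMettl14 libraries were below both shCTR libraries, and shMettl14 B was the lowest. The mean was 31.9 ± 3.84 CPM with shCTR and 17.5 ± 7.82 with shMettl14 (SD, n = 2 each), which is 55.1% of the shCTR level. In the main fit, in which letter differences count as spread, edgeR gave −0.86 on the log2 scale (95% interval −1.81 to 0.08, standard error 0.37, unadjusted p = 0.066 and adjusted p = 1.0). Fits with a block for the letter, whose p-values differ, are described with the other processing choices below. The log2 ratio was −0.58 within A and −1.28 within B. Leaving out shMettl14 B moved it to −0.46 and leaving out shMettl14 A to −1.41. In bulk RNA, fewer cells that express a gene and less RNA per cell cannot be told apart. Of the macrophage and leukocyte markers, cells that also make osteopontin, 5 of 8 were tested, all 5 with a negative fold change, and their summed ranges overlapped between the groups. All 7 smooth muscle markers also had negative fold changes, and the summed ranges did not overlap. So did 6 of 7 endothelial markers and all 4 tested striated muscle markers. Of the chondrocyte and osteoblast markers, 3 of 5 tested in each list had negative fold changes. Over all 18916 tested genes, 9230 did. The part of any of these cell types in the result was not tested.

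The gene (ENSMUSG00000029304, plus strand, GRCm38 chromosome 5 from 104435118 to 104441050) shares 18.8% of its exon bases with *Gm42793* on the same strand. The latter had at most 4 counts in any library, and how reads in the shared bases were assigned is not given in the sources used here. The receptors of osteopontin on the lists fixed for this comparison were *Cd44*, *Itgav*, *Itgb3* and *Itgb5*. *Cd44* had 288 and 301 CPM in shCTR A and B and 250 and 244 in shMettl14 A and B, or −0.25 on the log2 scale (standard error 0.18). The fold change was −0.40 for *Itgb5* (standard error 0.28), −0.27 for *Itgb3* (0.50) and 0.11 for *Itgav* (0.23), and no receptor of the 4 reached an unadjusted p under 0.05 in edgeR.

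The proximal promoter of *Spp1* is shown because its mRNA was the one that separated by hairpin, and that of *Enpp1*, whose libraries overlapped, because it holds the same motif. RefSeq promoter windows were at hand for 5 of the 9 regulators (*Spp1*, *Enpp1*, *Alpl*, *Ank* and *Msx2*), with a second start for *Spp1* and for *Alpl*, and the 250 bases before each start were searched on both strands. ACCACA, the core letters bound by RUNX factors, was found once in the first *Spp1* window, 128 bases before the start, and once in that of *Enpp1*, 144 bases before it, and in none of the other 5 windows. Of 32851 mouse promoter windows of this length, 14.0% hold it. TATAAA was found in the first *Spp1* window, 211 bases before the start, and in the second *Alpl* window, 192 bases before it on the other strand (12.4% of all windows). TGANTCA (6.75%) and CACGTG (6.02%) were found in none of the 7 windows. *Runx2* itself had 18.9 and 21.0 CPM in shCTR A and B and 15.9 and 14.7 in shMettl14 A and B, or −0.38 on the log2 scale (SE 0.22, unadjusted p = 0.14, edgeR), and 5.87% of its exon bases overlap *Runx2os1* on the other strand. The windows are from GRCm38.p6, 5′ to 3′ in the sense of the gene, with ACCACA in capitals.
Spp1, plus strand, chr5:104434861-104435110: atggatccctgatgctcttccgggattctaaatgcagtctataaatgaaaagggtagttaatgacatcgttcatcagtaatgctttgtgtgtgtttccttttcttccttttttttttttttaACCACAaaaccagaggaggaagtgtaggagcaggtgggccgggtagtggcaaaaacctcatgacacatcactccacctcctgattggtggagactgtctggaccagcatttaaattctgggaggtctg
Enpp1, minus strand, chr10:24712160-24712409: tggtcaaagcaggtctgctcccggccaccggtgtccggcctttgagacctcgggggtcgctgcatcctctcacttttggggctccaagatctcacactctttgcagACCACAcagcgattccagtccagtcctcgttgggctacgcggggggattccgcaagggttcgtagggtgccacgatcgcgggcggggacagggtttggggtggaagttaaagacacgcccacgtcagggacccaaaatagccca

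Among the other matrix and secreted inhibitors, *Mgp* and *Tnfrsf11b* did not separate by hairpin. *Mgp* (ENSMUSG00000030218, chromosome 6, 136872435 to 136875823, minus strand), which encodes a vitamin K–dependent inhibitor of arterial mineral, had 77550 and 55189 counts in shCTR A and B and 57049 and 72575 in shMettl14 A and B. It was lower with shMettl14 in A (log2 ratio −0.51) and higher in B (0.13), so the direction differed between letters. The means were 597 ± 121 CPM with shCTR and 519 ± 54.8 with shMettl14, a log2 fold change of −0.20 (standard error 0.23, 95% interval −0.80 to 0.40). *Tnfrsf11b* (ENSMUSG00000063727, chromosome 15, 54250619 to 54278484, minus strand) had 260 and 101 CPM in shCTR A and B and 266 and 101 in shMettl14 A and B. Its log2 ratios were 0.04 in A and 0.00 in B, and its log2 fold change of 0.02 had a 95% interval of −1.61 to 1.66, since the letters differed widely. RANK ligand (*Tnfsf11*), which osteoprotegerin binds, was at 0.863 and 0.861 CPM in shCTR A and B and at 0.514 and 0.592 in shMettl14 A and B (log2 fold change −0.64, standard error 0.43). For its receptor *Tnfrsf11a* the fold change was −0.28 (standard error 0.48).

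Of the genes that set extracellular pyrophosphate, *Enpp1* and *Ank* were lower with shMettl14 within both letters. In the main fit, in which letter differences count as spread, their log2 fold changes were smaller than their standard errors. *Enpp1* (ENSMUSG00000037370, chromosome 10, 24637914 to 24712159, minus strand) had 844 and 1703 counts in shCTR A and B and 824 and 1553 in shMettl14 A and B. The B libraries were the higher ones with either hairpin, and the groups overlapped. Its log2 ratios were −0.10 in A and −0.40 in B, and the log2 fold change was −0.30 (standard error 0.48, 95% interval −1.54 to 0.95). *Ank* (ENSMUSG00000022265, chromosome 15, 27466677 to 27594909, plus strand) had 81.1 and 91.2 CPM in shCTR A and B and 72.0 and 84.7 in shMettl14 A and B. It varied least of the 9 over the 4 libraries, 1.27-fold from lowest to highest. The log2 fold change of *Ank* was −0.14 (standard error 0.20), with log2 ratios of −0.17 and −0.11, and its 95% interval of −0.66 to 0.38 was the narrowest of the 9 regulators. *Alpl* (ENSMUSG00000028766, chromosome 4, 137741733 to 137796384, minus strand) had 9 and 30 counts in shCTR A and B and 18 and 17 in shMettl14 A and B. Exact 95% Poisson intervals of these counts, which cover counting error only, were 4.12 to 17.1, 20.2 to 42.8, 10.7 to 28.4 and 9.90 to 27.2, so that the intervals of the 2 shCTR libraries did not overlap while those of the 2 shMettl14 libraries did. The *Alpl* log2 ratios were 0.81 in A and −0.997 in B, and the interval of its log2 fold change, −2.61 to 1.94, held 0.

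Of the pro-osteogenic and chondrogenic regulators, *Bmp2* and *Msx2* differed more between letters than between hairpins, and *Sox9* did not. *Bmp2*, a ligand that induces bone formation (ENSMUSG00000027358, chromosome 2, 133552159 to 133562885, plus strand), had 39 and 153 counts in shCTR A and B and 39 and 199 in shMettl14 A and B. The Poisson intervals of the A libraries (27.7 to 53.3 for each) lay wholly below those of the B libraries (130 to 179 and 172 to 229). Its log2 fold change between hairpins was 0.08 (standard error 1.0). *Msx2*, a homeobox gene downstream of BMP signals (ENSMUSG00000021469, chromosome 13, 53466884 to 53473074, minus strand), had 25.8 and 10.1 CPM in shCTR A and B and 25.9 and 8.92 in shMettl14 A and B, and the log2 ratio was 0.00 in A and −0.18 in B. *Sox9*, the master factor of cartilage (ENSMUSG00000000567, chromosome 11, 112782224 to 112787760, plus strand), had 28.0 and 27.3 CPM in shCTR A and B and 31.3 and 23.0 in shMettl14 A and B. The 2 shCTR values of *Sox9* lay between the 2 shMettl14 values, and its log2 fold change was −0.03 (standard error 0.24, 95% interval −0.64 to 0.59). *Col2a1*, the cartilage collagen gene that SOX9 activates, was at 150 and 348 CPM in shCTR A and B and at 115 and 275 in shMettl14 A and B. Unlike *Sox9*, it was thus higher in the B libraries with either hairpin (log2 fold change between hairpins −0.35, standard error 0.58).

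**Figure D3:**
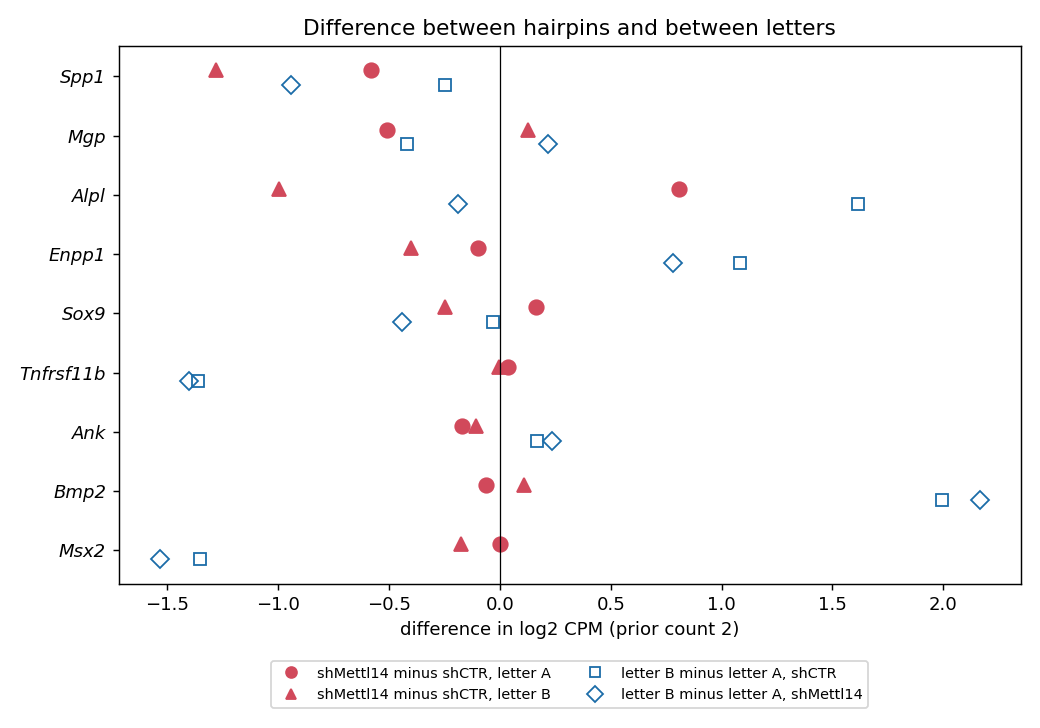
Differences in log2 CPM for each regulator, with red filled symbols for shMettl14 minus shCTR within letter A (circle) and B (triangle) and blue open symbols for letter B minus letter A within shCTR (square) and shMettl14 (diamond). For *Tnfrsf11b*, *Bmp2* and *Msx2* the red symbols lie near 0 and the blue symbols lie 1.35 to 2.16 from 0 on either side.

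For 4 of the 9 regulators, *Enpp1*, *Tnfrsf11b*, *Bmp2* and *Msx2*, both differences between letters were larger than both differences between hairpins, which was the case for 29.3% of all tested genes. *Tnfrsf11b* was 2.57-fold higher in A than in B with shCTR and 2.64-fold higher with shMettl14, and *Msx2* was 2.56-fold and 2.90-fold higher in A. *Bmp2* was 4.13-fold higher in B with shCTR and 4.66-fold higher with shMettl14, and *Enpp1* 2.12-fold and 1.72-fold. These letter differences are described without a test, since the letters are replicates of the groups. A difference of at least 1 on the log2 scale under both hairpins was found for 2 regulators higher in A (*Tnfrsf11b* and *Msx2*), against 4.73% of all tested genes, and for 1 higher in B (*Bmp2*), against 3.83%. The summed endothelial markers were higher in the B libraries, mainly through *Emcn*. Without it they summed to 1183 and 1813 CPM in shCTR A and B and to 1238 and 1331 in shMettl14 A and B, and *Tie1* was higher in A. Their part in these values was not tested.

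The other genes of the mineralization pathways were read from lists of 62 genes, of which 60 were tested. None had an adjusted p under 0.05 in edgeR, and 1, *Anxa5*, had an unadjusted p under 0.05, against 1.67% of all tested genes. With shMettl14, 27 were lower and 33 higher, 18 were lower in both letters (27.6% of all tested genes) and 21 higher in both (30%), and the median log2 fold change was 0.04, against 0.01 over all tested genes. The 5 matrix vesicle genes had the lowest list median, −0.45. *Anxa5*, a calcium-binding annexin found in matrix vesicles, had 1013 and 952 CPM in shCTR A and B and 618 and 655 in shMettl14 A and B. Both shMettl14 libraries were thus below both shCTR libraries, at −0.63 on the log2 scale (SE 0.18, unadjusted p = 0.019 and adjusted p = 1.0, edgeR). The related *Anxa6* and *Anxa2* had log2 fold changes of −0.51 (standard error 0.22) and −0.45 (0.22), also with both shMettl14 libraries below both shCTR libraries (3 of 5 genes of the list, 13.3% of all tested genes), whereas *Sort1* and *Smpd3* had values of 0.14 and 0.31. The smooth muscle markers, whose summed level did not overlap between the groups either, were lower where the annexins were. Those of striated muscle (4 of 6 tested) were lower too. They summed to 14.7 and 1.54 CPM in shCTR A and B and to 0.741 and 0.477 in shMettl14 A and B. Their shCTR level was thus mainly that of A, unlike the level of *Anxa5*. The part of either marker list in the annexin values was not tested.

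The phosphate and pyrophosphate list (9 of 9 tested) had a median log2 fold change of 0.03, with *Enpp3* at 0.52 (standard error 0.41), the adenosine transporter *Slc29a1* at −0.26 (0.19) and the ectonucleotidase *Nt5e* at 0.25 (0.37). In the list of mineral-binding, vitamin K and receptor genes (13 of 13 tested, median 0.06), the largest differences beside *Itgb5* at a mean of at least 1 CPM were those of the vitamin K cycle enzymes *Vkorc1* (0.40, standard error 0.52) and *Ggcx* (0.34, 0.29), both of which were near 0 in A (−0.06 and −0.02) and higher in B (1.15 and 0.78). For both, shCTR B was the lowest library, at 1.77 CPM of *Vkorc1* (3.94 to 4.41 elsewhere) and 30.2 CPM of *Ggcx* (48.9 to 52.0 elsewhere). *Vkorc1* shares 47.7% of its exon bases with *Gm21974* on the same strand, so its level may leave out reads. Of the osteochondrogenic factors and cartilage genes 10 of 11 were tested, with a median of −0.09. *Trps1*, a repressor of cartilage maturation, had 14.0 and 11.3 CPM in shCTR A and B and 22.9 and 17.1 in shMettl14 A and B (log2 fold change 0.66, standard error 0.27, unadjusted p = 0.060, edgeR), and *Acan*, the cartilage proteoglycan gene, had a fold change of −0.67 (0.49), with −0.29 in A and −1.35 in B. The BMP list (17 of 18 tested, median 0.07) had *Smad5*, a signal transducer of BMP receptors, higher in both shMettl14 libraries (54.8 and 61.8 CPM in A and B, against 42.8 in each shCTR library, log2 fold change 0.45, standard error 0.19), while its relative *Smad1* was lower in both (30.8 and 28.5 CPM against 31.6 and 37.5, −0.22, standard error 0.21), with *Acvr2a* at 0.31 (0.26) and *Chrd* at 0.31 (0.85). In the RANK ligand list (6 of 6 tested, median 0.01), *Tnfsf10* was at 0.30 (0.38), *Traf6* at 0.24 (0.24) and *Csf1* at 0.08 (0.22). Apart from *Anxa5*, none of the genes named in the lists had an unadjusted p under 0.05 in edgeR.

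**Figure D4:**
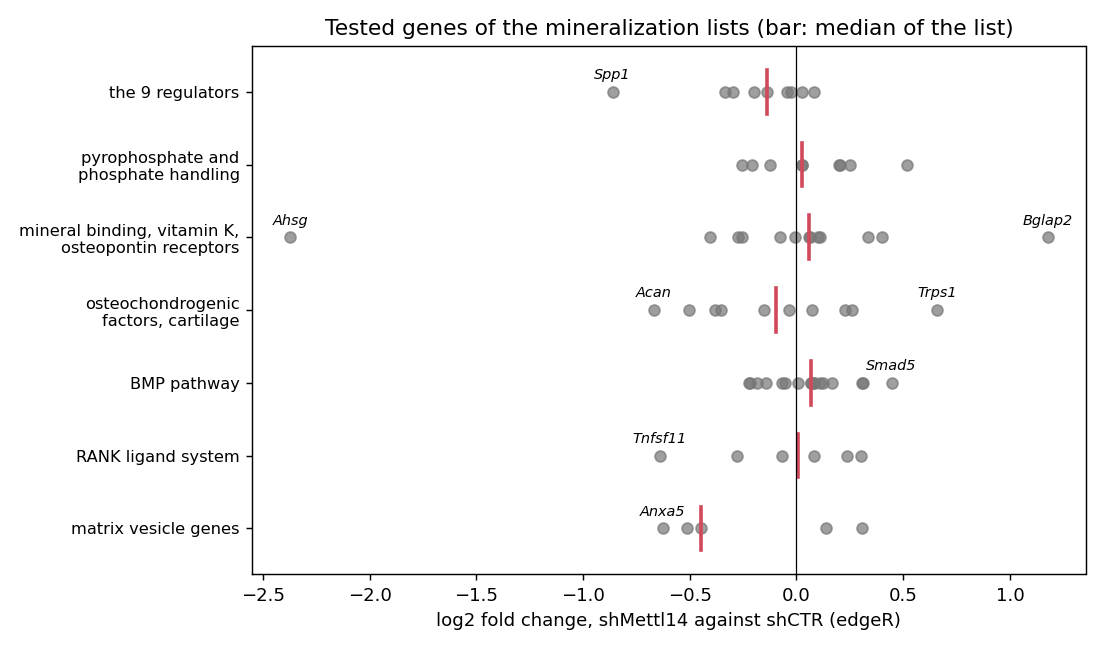
Log2 fold change of each tested gene (grey points) in the set of 9 regulators and in 6 lists of mineralization genes, with a red bar at the median. *Spp1* lies at −0.86 in the top row and the median of the matrix vesicle genes at −0.45. *Ahsg* (183 counts in shCTR A and 13 to 32 elsewhere) and *Bglap2* (3 to 41 counts) are the low-count points at the sides.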

How the data were processed

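The deposited values are counts of reads per gene symbol, without normalization, in 1 table of 4 columns. Per the labels and the study's methods, the authors prepared poly-A–enriched stranded libraries, mapped paired reads to the mouse genome (mm10) with STAR and counted them with featureCounts. Tool versions, the strand setting and the treatment of reads with several places are not given in the sources used here. Reads that fall in bases shared by overlapping genes may be lost or assigned to either.

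Counts were scaled by TMM in edgeR 4.0.16 (R 4.3.3), filtered by filterByExpr, and compared by a robust quasi-likelihood fit without a block, with Benjamini-Hochberg adjustment over all tested genes (threshold 0.05). The standard error of a log2 fold change was its size over the square root of F, and 95% intervals use the fit's degrees of freedom. Log2 ratios within letters and letter differences use log2 CPM with a prior count of 2. A count of 0 allows up to 3 counts, or 0.0231 to 0.0278 CPM. DESeq2 1.42.0 was an alternative, with other normalizations, filters, a replicate block and each library left out. The fits were also run on simulated counts. These had no letter difference and less spread between replicates than the real libraries, so no conclusion about the present results is drawn from them.

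The regulators and lists were chosen with earlier results of these data known. Named are *Mettl14*, the regulators, and per list the genes with an unadjusted p under 0.05 and the 3 with the largest change at a mean of at least 1 CPM. The receptors, *Col2a1*, *Smad1*, *Emcn*, *Tie1*, the RANK ligand genes, *Sort1*, *Smpd3*, *Ahsg*, *Bglap2* and the genes compared by letter in the closing section were named after their values were seen. Exon lengths, overlaps and transcripts are from GENCODE M21 (GRCm38), and promoters from RefSeq (GRCm38.p6). Motif windows are printed for 3 regulators, and a further item is not reported here. With 4 libraries no gene was ranked by likeness to a regulator.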

Additional observations from a re-analysis of the deposited data

How the results depend on the processing

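Under RLE factors, upper-quartile factors, no filter, a minimum of 10 counts per library (which leaves out *Alpl*), DESeq2, and either tool with a replicate block, the log2 fold change of each regulator fitted kept its sign, and that of *Spp1* lay between −0.94 and −0.85. The count of regulators lower in both letters was 3 with prior counts of 0.5 and 5 and with upper-quartile factors, and 4 with RLE factors. Over all genes, calls at an adjusted p under 0.05 numbered 0 with edgeR, 5 with DESeq2, 9 with the edgeR replicate block and 114 with the DESeq2 replicate block, and 0 to 1 with 1 library left out. The DESeq2 replicate block called 1 regulator, *Spp1* (−0.94, adjusted p = 0.015), and 1 pathway gene, *Anxa5* (−0.63, adjusted p = 0.045). The adjusted p of *Spp1* was 0.16 with the edgeR replicate block and 1.0 with DESeq2. The edgeR block moved the standard error of *Enpp1* from 0.48 to 0.19, of *Tnfrsf11b* from 0.64 to 0.15 and of *Bmp2* from 1.0 to 0.41. That of *Msx2* went from 0.67 to 0.17 and that of *Alpl* from 0.89 to 1.0. In edgeR the replicate block moved the genes at an unadjusted p under 0.05 from 315 (1.67% of all tested genes) to 1941 (10.3%). Of the regulators *Spp1* was among them, and so were 10 of the 60 tested pathway genes (*Acan*, *Anxa2*, *Anxa5*, *Anxa6*, *Chrd*, *Col2a1*, *Itgb5*, *Runx2*, *Smad5* and *Trps1*). Without the block, *Spp1* was also under that level with no filter, with DESeq2 and without shMettl14 A, and *Trps1* with no filter and with upper-quartile factors. *Mettl14* passed with DESeq2 (−2.09), with the replicate block (−2.08) and with both (−2.09). Same-letter libraries deviated together from their group means (r = 0.578 across genes), but with 2 pairs and no statement of shared cultures the letters were not taken as pairs.

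With 1 library left out, which leaves the letters unequal between groups, 11 of 36 values of the regulators changed sign. *Spp1* (−1.41 to −0.46) and *Ank* (−0.25 to −0.02) did not. The others ranged over −0.40 to 0.027 for *Mgp*, −0.97 to 0.82 for *Alpl*, −0.74 to 0.34 for *Enpp1*, −0.26 to 0.18 for *Sox9*, −0.84 to 0.87 for *Tnfrsf11b*, −1.41 to 1.43 for *Bmp2* and −1.01 to 0.79 for *Msx2*. Among the named pathway genes, signs changed for *Nt5e* (−0.11 to 0.67), *Vkorc1* (−0.12 to 1.21), *Chrd* (−0.67 to 1.76), *Tnfsf10* (−0.016 to 0.57) and *Csf1* (−0.078 to 0.26). The cause of these changes was not tested.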

Other observations

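Several BMP antagonists and bone-related genes differed between the letters under both hairpins, *Grem1*, *Nog* and *Dlx5* by more than any of the 9 regulators. *Grem1*, a secreted BMP antagonist, had 456 and 440 CPM in shCTR A and shMettl14 A and 33.8 and 31.5 in shCTR B and shMettl14 B, which is 13.5-fold and 14.0-fold higher in A. *Nog*, which encodes the antagonist noggin, had 875 and 877 counts in shCTR A and shMettl14 A and 0 and 101 in shCTR B and shMettl14 B. *Chrd* was 4.46-fold and 2.94-fold higher in A and *Bmper* 2.40-fold and 2.43-fold, whereas the ligand *Bmp2* was higher in B. *Dlx5*, a homeobox gene of bone formation, had 20.6 and 20.8 CPM in the A libraries of shCTR and shMettl14 and 1.12 and 0.469 in the B libraries. The inhibitors *Fst* and *Twsg1* of the same list were higher in B, *Fst* by 1.90-fold and 2.06-fold with shCTR and shMettl14 and *Twsg1* by 1.36-fold and 1.09-fold. A difference of at least 1 on the log2 scale under both hairpins was found for 8 of the 60 tested pathway genes higher in A, against 4.73% of all tested genes, and for 2 (*Col2a1* and *Sox5*) higher in B, against 3.83%. These genes were chosen after their values were seen and have no test.

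The endothelial marker *Emcn* also differed by letter, with 648 and 484 CPM in shCTR A and shMettl14 A and 2099 and 1077 in shCTR B and shMettl14 B. What the letters stand for is not given in the labels, and a difference between cultures cannot be told apart from one between libraries.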
